A study of Oryza sativa with 12 samples.

Results

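MCM3, MCM6, MCM7 and FEN1a are 4 genes of the DNA replication fork, taken by their symbols from a table of 37878 rice (Oryza sativa) genes, 412 of which carried a symbol. All 4 were found, and all 4 passed a filter on low counts that their embryo libraries alone could meet. RNA was sequenced from pericarp (the maternal fruit wall), aleurone (the living cells around the starchy endosperm), embryo and endosperm of developing seed, with 3 libraries each. Every group came from field-grown plants without treatment, so tissue was the only labelled difference, and the design asks where in the seed each gene is active. The sources used here do not give the cultivar, the age of the seed or whether tissues shared seeds. Where nothing says that libraries came from separate plants, p-values measure only the spread between these libraries, which the design text calls biological replicates.

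DNA is copied once per cell cycle. Before S phase a ring of MCM proteins, MCM2 to MCM7 in equal numbers, is loaded onto replication origins, and this ring becomes the helicase that unwinds the double helix. MCM3, MCM6 and MCM7 are subunits of that ring. FEN1 acts later, as the flap endonuclease that trims the 5′ ends of Okazaki fragments before they are ligated, and it also works in base excision repair. Transcripts of these genes are known as marks of dividing cells. In a seed the starchy endosperm stops dividing as it fills, and its cells can go on copying DNA without division. In bulk tissue, fewer dividing cells and less RNA per cell cannot be told apart.

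Library totals ran from 2879282 to 24412371 counts, and the libraries differed widely in how many genes they held. Genes with a count numbered from 4599 to 5893 in pericarp, from 6780 to 10490 in endosperm, from 8158 to 13676 in aleurone and from 14326 to 16862 in embryo. Of the 11559 genes with at least 50 counts in every embryo library, each pericarp library had no count for 60.5% to 67.3%. The same share was 15.3% to 46.1% in aleurone and 33.0% to 54.0% in endosperm. Each library carries the number of its column header, and endosperm was assigned by elimination from the letters Se. The starch synthase gene WAXY, the only 1 of 15 listed endosperm markers in the table, was at 23088 to 81668 CPM in endosperm libraries and at most 2639 elsewhere. Of 8 listed embryo markers 4 were in the table, with a summed level of 99.1 to 164 CPM in embryo, 0 to 54.8 in pericarp, 0 to 30.4 in aleurone and 0 in endosperm. In pericarp OSH71, WOX4 and SPL12 were at 0, in aleurone OSH15, WOX4 and SPL12, and in endosperm all 4. The 4 aleurone markers in the table, of 8 listed, summed to 3471 to 6970 CPM in aleurone, 2108 to 4488 in embryo, 2181 to 3336 in pericarp and 181 to 639 in endosperm. The 3 pericarp markers in the table, of 7 listed, were as high in aleurone as in pericarp, at 407 to 1581 and 567 to 1106 CPM. They summed to at most 36.3 CPM in embryo, with SUT1 and SWEET11 at 0, and to at most 18.1 in endosperm, with CIN2 at 0.

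In the deposited table MCM3 lies on chromosome 5 from 24847361 to 24851976 on the plus strand, and MCM6 on the same chromosome from 9926197 to 9932207, also on the plus strand. MCM7 lies on chromosome 12 from 18451670 to 18456504 on the minus strand, and FEN1a on chromosome 5 from 28209293 to 28212977 on the minus strand. No other gene of the table overlapped any of the 4. The sources used here name no genome build, no way of counting and no strand setting.

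MCM3 was high in every embryo library and nearly missing from aleurone. Levels are CPM, counts per 1000000 after TMM scaling of the libraries, and since they are not divided by gene length they compare libraries and not genes. MCM3 stood at 260, 225 and 182 CPM in embryo 2, 3 and 4, from 5625, 4049 and 3779 counts. In pericarp it had 117 CPM in library 4, from 704 counts, and no count in libraries 1 and 3. Endosperm 2 and 4 held 10.3 and 4.41 CPM and endosperm 3 none, while the 3 aleurone libraries together held 1 count. All 3 embryo libraries thus lay above the 9 others, and the next highest was the single pericarp library with counts. This separation depended on the scaling: by library totals pericarp 4 stood at 245 CPM and embryo 4 at 240. The order of the means was embryo at 222 ± 38.7 CPM, pericarp at 39.0 ± 67.6, endosperm at 4.89 ± 5.14 and aleurone at 0.0247 ± 0.0427 (SD, n = 3 each). The embryo mean was 45.5 times that of endosperm and 5.69 times that of pericarp, and by library totals 133 times and 3.41 times. Against the 1 aleurone count the ratio was 6431 (9745 by library totals), with a 95% Poisson interval of 1154 to 254029 that covers counting error only.

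MCM6 was counted in all embryo libraries and in 1 other library above a single read. It had 39.8, 21.4 and 99.1 CPM in embryo 2, 3 and 4, from 863, 386 and 2055 counts. Aleurone 3 held 12.4 CPM from 118 counts, pericarp 3 a single count, and the 7 remaining libraries none. The embryo libraries again lay above the 9 others, although embryo 3 exceeded aleurone 3 by less than the embryo libraries differed among themselves. Means were 53.5 ± 40.6 CPM in embryo and 4.13 ± 7.16 in aleurone (SD, n = 3). Pericarp had a mean of 0.0436 ± 0.0755 and endosperm had no count. Set against a floor of 3 counts over its 3 libraries, endosperm was at least 438-fold lower than embryo. Of the 11559 genes with at least 50 counts in every embryo library, 19.9% had no count in any endosperm library. The ratio to the single pericarp count was 1174 (95% Poisson interval 211 to 46381). The ratio to the aleurone mean was 12.9, and by library totals it was 23.2 and the endosperm bound 1157.

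MCM7 was counted in 4 libraries only, the 3 of embryo and pericarp 3. Embryo 2, 3 and 4 held 22.8, 75.5 and 53.4 CPM, from 494, 1360 and 1108 counts. Pericarp 3 held 83.3 CPM from 637 counts, more than any embryo library, while pericarp 1 and 4 and all aleurone and endosperm libraries were at 0. Embryo and pericarp therefore overlapped, with means of 50.6 ± 26.5 and 27.8 ± 48.1 CPM (SD, n = 3). By the floor of 3 counts, MCM7 was at least 488-fold lower in aleurone and 415-fold lower in endosperm than in embryo, bounds that library totals moved to 752 and 1090. Of the 11559 genes held by every embryo library 712, or 6.16%, had no count in any of these 6 libraries.

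FEN1a, the flap endonuclease gene, was the most widely found, with at least 145 counts in 9 of the 12 libraries. Embryo 2, 3 and 4 had 174, 54.6 and 134 CPM, from 3780, 983 and 2771 counts. All aleurone libraries held it, at 22.0, 75.5 and 24.6 CPM in aleurone 1, 2 and 3. It stood at 67.3 CPM in pericarp 3 and at 0 in pericarp 1 and 4. Endosperm 2 and 4 held 17.5 and 13.8 CPM and endosperm 3 none. Aleurone 2 and pericarp 3 both exceeded embryo 3, so the tissues overlapped. Means fell in the order embryo, aleurone, pericarp and endosperm, at 121 ± 60.9, 40.7 ± 30.2, 22.4 ± 38.9 and 10.4 ± 9.23 CPM (SD, n = 3). By library totals aleurone and pericarp changed places, at 38.2 and 39.4 CPM, and the ratio of embryo to endosperm went from 11.6 to 33.4.

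**Figure D1:**
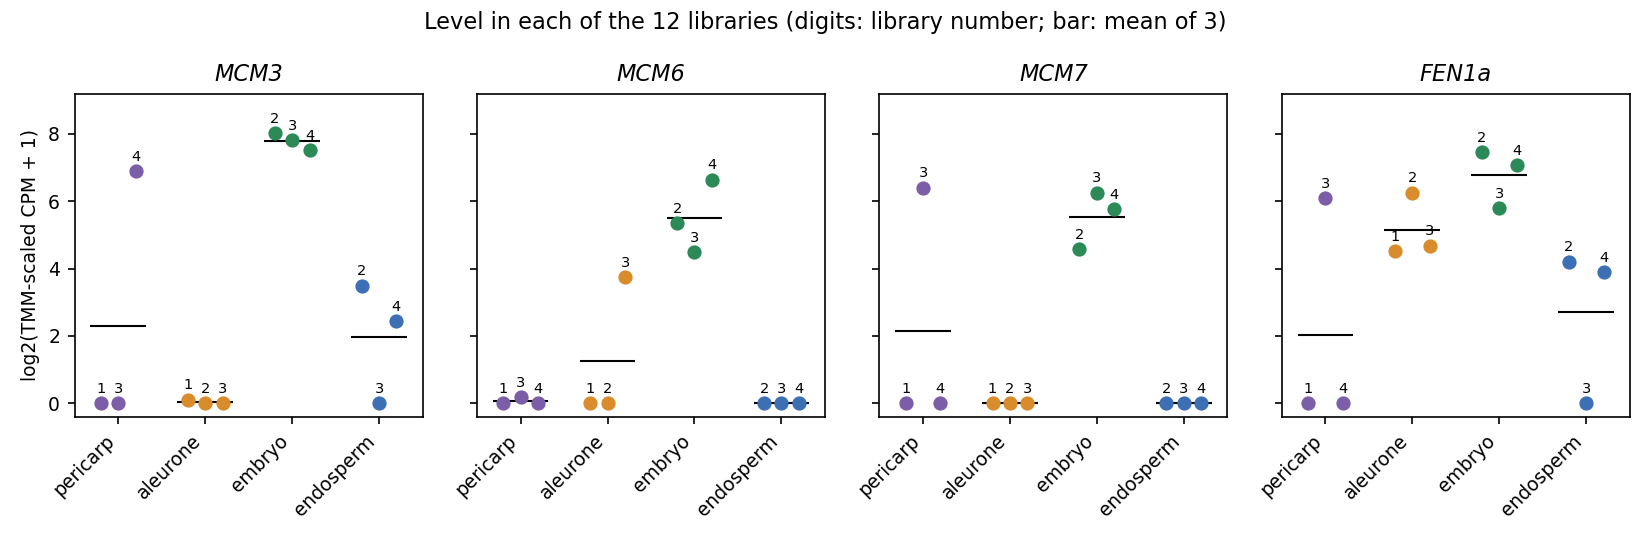
Levels of the 4 genes as log2(TMM-scaled CPM + 1) on the vertical axis, by tissue on the horizontal axis; each point is 1 library with its number and the bar is the mean of 3. With this scaling MCM3 and MCM6 have all embryo points above the others (by library totals pericarp 4 passes embryo 4 for MCM3), MCM7 and FEN1a have a pericarp 3 point among them, and most other points of the 3 helicase genes lie at 0.

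The depth of each library, here after TMM scaling, sets how many counts a zero can be read against. MCM3 had at most 1 count in 6 libraries outside embryo, where its lowest embryo level would have given at least 942 counts. MCM6 and MCM7 had at most 1 in 8 libraries each, where at least 111 and 118 would have been counted. FEN1a had none in 3, where at least 282 would have been. Such zeros were common in these libraries for genes of every kind. In pericarp, 57.2% of the 8826 genes with at least 50 counts in some library had at most 1 in the other 2, as MCM3, MCM7 and FEN1a did. The same share was 26.9% in aleurone, where MCM6 showed it, 30.0% in endosperm and 9.49% in embryo. Whether these zeros across many genes account for those of the 4 was not tested.

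Set against the mean log2 level of the other 3 tissues, the 3 helicase genes were called higher in embryo and FEN1a was not. The log2 fold change of this comparison, here and below, is the mean of those against single tissues, not a ratio to a mean level. For MCM7, 8.40 is the mean of 0.87, 12.16 and 12.16 against pericarp, aleurone and endosperm. The last 2 values depend on the prior count, as MCM7 was at 0 in both tissues. Calls needed a Benjamini-Hochberg adjusted p below 0.05 over all 16347 genes tested and a fold of at least 2, and 16.6% of all genes were called higher in embryo. The log2 fold change was 6.80 ± 1.82 for MCM3 (SE, edgeR quasi-likelihood adjusted p = 0.0273), 8.61 ± 2.12 for MCM6 (adjusted p = 0.0228) and 8.40 ± 2.28 for MCM7 (adjusted p = 0.0404). FEN1a had 2.51 ± 1.69 (edgeR adjusted p = 0.307). The embryo libraries all lay above the 9 others for 2 of the 4 genes, MCM3 and MCM6, and did so for 13.2% of all genes tested. With DESeq2 size factors it was the same 2, with 11.2% of all genes, and by library totals MCM6 alone, with 18%.

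The median log2 fold change of all genes tested in this comparison was 2.30. Above that median MCM3 stood 4.50, MCM6 6.32 and MCM7 6.10 log2 units, and FEN1a 0.21. With scaling by DESeq2 size factors the median was 2.05, and with library totals alone 2.87. The distances to it were then 4.46 and 4.37 for MCM3, 6.38 and 6.08 for MCM6, 6.12 and 5.68 for MCM7, and 0.15 and 0.12 for FEN1a. FEN1a exceeded 51.8% of all genes in this fold change, and MCM3, MCM6 and MCM7 87.6%, 94.5% and 93.9%.

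The calls of the 3 helicase genes were not stable when single libraries were left out. The filter on low counts was applied anew each time, so the genes tested went from 16347 to between 17389 and 18379. Those of MCM3 and MCM7 ended when any 1 of the 9 libraries outside pericarp was left out, with edgeR adjusted p of 0.0518 to 0.0635 for MCM3 and 0.0623 to 0.0941 for MCM7. That of MCM6 ended without aleurone 3, embryo 2, embryo 4 or any endosperm library (0.0505 to 0.0912). Without aleurone 3 the number of genes called among all those tested went from 2903 to 78, so most other calls were lost there as well. It went to 120 without endosperm 4 and to 317 without endosperm 2. Without aleurone 1, aleurone 2 and embryo 3 it was 2475, 1833 and 1980. There most calls among all genes stayed, and that of MCM6 stayed, while those of MCM3 and MCM7 ended. Without embryo 2, embryo 4 and endosperm 3 it was 1429, 992 and 1170. For MCM6 the log2 fold change without aleurone 3 was larger, at 11.59. Its unadjusted p was 0.000398 there and 0.0020 with all libraries (edgeR), so that call ended through the adjustment over all genes. Leaving out pericarp 3, the only pericarp library with FEN1a counts, brought FEN1a to a log2 fold change of 6.40 (edgeR adjusted p = 0.0275), and leaving out pericarp 4 brought MCM3 to 10.95 (0.00559). Without all 3 pericarp libraries, a comparison added after the data were seen, MCM3 and MCM7 were called against the mean of aleurone and endosperm (adjusted p = 0.00585 and 0.0223, edgeR), and MCM6 and FEN1a were not (0.0688 and 0.156), where 10.4% of all genes were called higher in embryo. With the sequencing lane as a covariate MCM7 had an edgeR adjusted p of 0.053. Within both lanes the embryo libraries lay above all others for MCM3 and MCM6, with 2 embryo libraries in lane 5 and 1 in lane 6, except that by library totals pericarp 4 exceeded embryo 4 for MCM3 in lane 5. In lane 5 pericarp 3 exceeded embryo 3 and 4 for MCM7, and exceeded embryo 3 for FEN1a, and in lane 6 embryo 2 was highest for both.

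**Figure D2:**
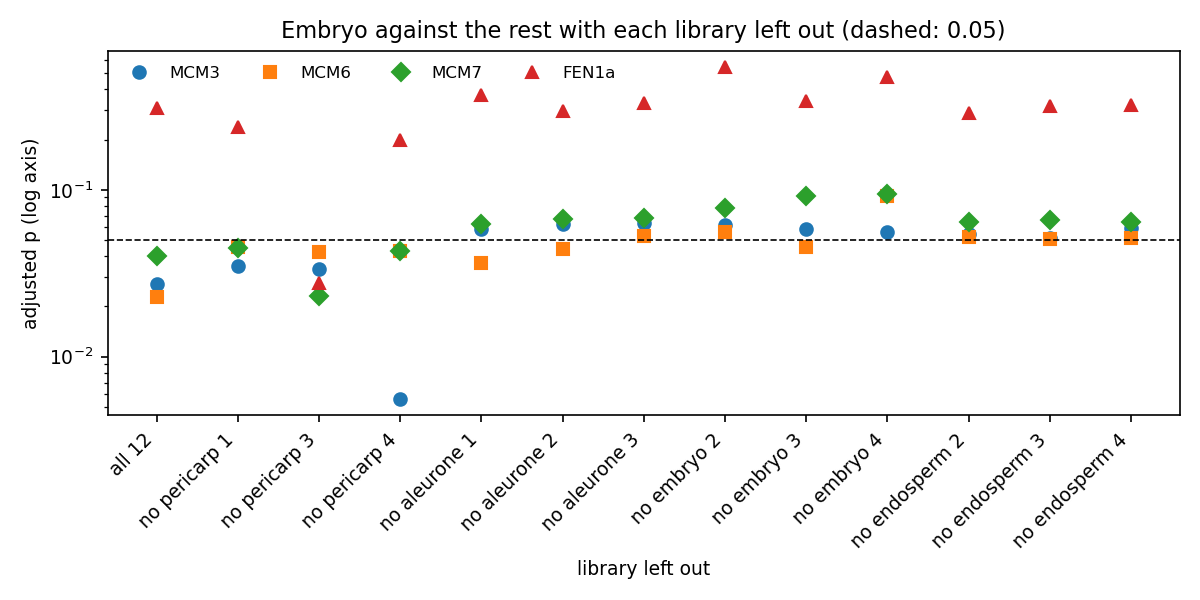
Adjusted p of embryo against the mean log2 level of the other 3 tissues on a log axis, with all 12 libraries and with each library left out (horizontal axis). Points are the 4 genes and the dashed line is 0.05. With all 12 libraries MCM3, MCM6 and MCM7 lie at 0.0273, 0.0228 and 0.0404, and MCM3 and MCM7 lie above the line wherever the library left out is not a pericarp library.

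In the pairs of tissues none of the 4 genes was called by edgeR, so that no neighbours in the orders of means were shown to differ beyond their spread. Against pericarp, where 2.79% of all genes were called, MCM6 came nearest, with a log2 fold change in embryo of 9.91 ± 3.69 (SE, edgeR adjusted p = 0.0897). MCM3 had 2.51 ± 2.38, FEN1a 2.43 ± 2.39 and MCM7 0.87 ± 2.73 (adjusted p from 0.535 to 0.918, edgeR). At an unadjusted p below 0.05 the count was 1 of 4, MCM6, beside 40.2% of all genes. DESeq2 called MCM6 and 32.2% of all genes, limma voom all 4 and 44.2%, and a fit of the 6 libraries of these tissues MCM6 and 42.1%. Leaving out pericarp 4 brought MCM3 to an adjusted p of 0.0315, and leaving out pericarp 3 brought FEN1a to 0.0488 (edgeR).

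Against aleurone, where 0.447% of all genes were called, MCM3 and MCM7 were the farthest apart from their embryo levels. Their log2 fold changes were 12.40 ± 3.67 and 12.16 ± 4.29 (SE, edgeR adjusted p = 0.172 and 0.216), values that depend on the prior count where a tissue is at or near 0. MCM6 had 3.69 ± 2.78 and FEN1a 1.57 ± 2.32 (adjusted p = 0.955 and 1, edgeR). Unadjusted p below 0.05 was reached by 2 of the 4 and by 14.4% of all genes. DESeq2 called MCM3 and MCM7 and 8.3% of all genes, and limma voom called these, MCM6 and 13.8%. The fit of the 6 libraries alone called MCM3 and MCM7 (edgeR adjusted p = 0.00996 and 0.0416) and 2.56% of all genes. Without pericarp 4 MCM3 had an edgeR adjusted p of 0.0452.

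Against endosperm, where 0.685% of all genes were called, the log2 fold changes were 5.50 ± 2.73 for MCM3, 12.24 ± 3.97 for MCM6, 12.16 ± 4.34 for MCM7 and 3.53 ± 2.50 for FEN1a (SE, edgeR adjusted p = 0.219, 0.121, 0.135 and 0.476). At an unadjusted p below 0.05 there were 2 of the 4 and 26.7% of all genes. DESeq2 called MCM6 and MCM7 and 18.9% of all genes, and limma voom the 3 helicase genes and 28.5%. The fit of the 6 libraries of these tissues called the same 3 (adjusted p = 0.0313 for MCM3 and 0.0148 for MCM6 and MCM7, edgeR) and 29.5% of all genes.

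**Figure D3:**
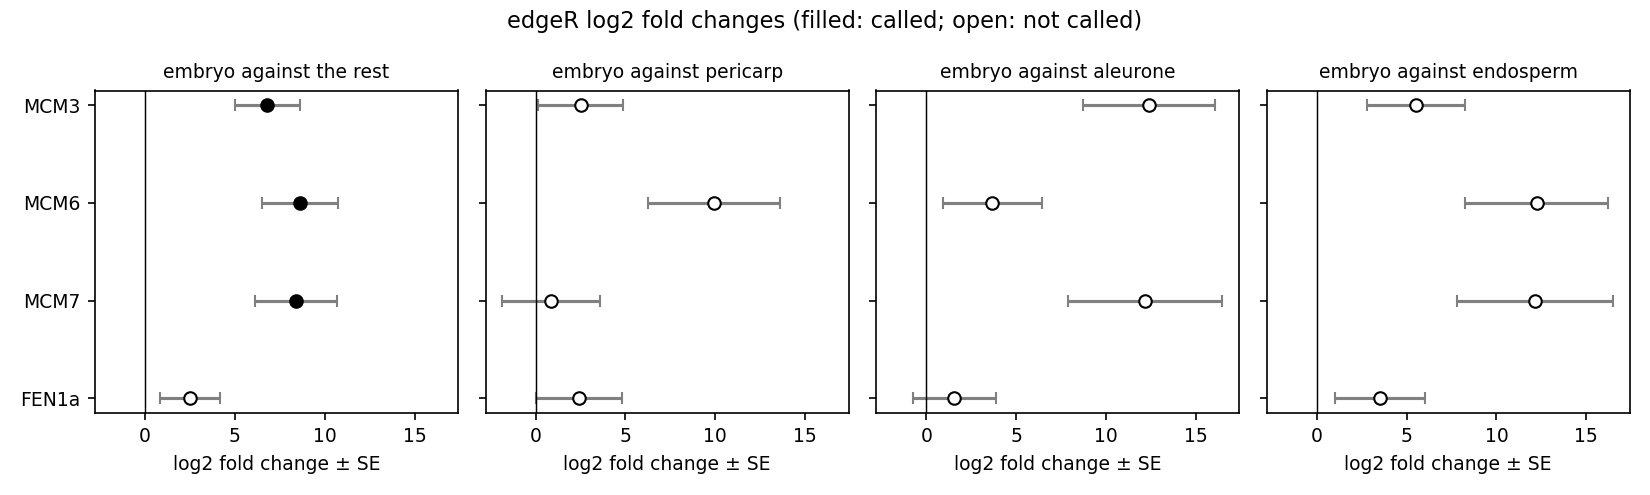
edgeR log2 fold changes (horizontal axis, bars are SE) of the 4 genes in embryo against the mean log2 level of the other tissues and against each tissue. Filled points were called. Filled points stand at 6.80, 8.61 and 8.40 for MCM3, MCM6 and MCM7 in the first panel, and every point against a single tissue is open.

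Between the 3 tissues outside embryo the helicase genes differed in which tissue held them. MCM3 and MCM7 had fitted log2 fold changes of -9.89 ± 3.38 and -11.30 ± 4.16 in aleurone against pericarp (SE, edgeR adjusted p = 0.13 and 0.143), each resting on 1 pericarp library. MCM6 had 6.22 ± 3.17 there (0.194), resting on aleurone 3, and FEN1a 0.86 ± 2.28 (adjusted p = 1), which turned to -0.050 with library totals alone. In this pair 1.63% of all genes were called. Between aleurone and endosperm, with 0.0428% called, MCM3 had -6.90 ± 3.02, MCM6 8.55 ± 3.46 and FEN1a 1.96 ± 2.35 (edgeR adjusted p = 0.255, 0.255 and 0.953), and MCM7 was at 0 in both. Between pericarp and endosperm, with 2.46% called, MCM7 had 11.30 ± 4.21 (edgeR adjusted p = 0.149). MCM3 and FEN1a had 2.99 ± 2.43 and 1.10 ± 2.30 (0.515 and 0.969), and MCM6, with 1 count against none, gives no fold. MCM3 went to -8.72 without pericarp 4 and FEN1a to -9.79 without pericarp 3, the only pericarp libraries that held them. Unadjusted p below 0.05 was reached by 2, 2 and 1 of the 4 genes in these 3 pairs, beside 31.1%, 19.6% and 30.3% of all genes. DESeq2 called MCM3 and MCM7 in the first (27.1% of all genes), MCM6 in the second (14.4%), and MCM7 and the 1-count MCM6 in the third (30.2%). Limma voom called none of the 4, and 10.3%, 4.4% and 10.3% of all genes. The F test between any tissues, which called 1.78% of all genes, gave adjusted p of 0.108 for MCM3, 0.101 for MCM6, 0.124 for MCM7 and 0.697 for FEN1a (edgeR). An unadjusted p below 0.05 was reached by 3 of the 4 and by 32.3% of all genes. DESeq2 called MCM6 and 14.5% of all genes, and limma voom all 4 and 43.9%. With the replicate block MCM3 reached 0.0457, and without pericarp 4 it reached 0.0185 (edgeR).

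MCM3, MCM6 and MCM7 were each highest in a different embryo library, a description of 3 libraries without a test. MCM6 was lowest in embryo 3, at 40.1% of its own embryo mean, where MCM7 was highest, at 149%. MCM6 was highest in embryo 4, at 185%, and MCM7 lowest in embryo 2, at 45.1%. MCM3 lay nearer to its mean, at 117%, 101% and 82.0% in embryo 2, 3 and 4. FEN1a was lowest in embryo 3, at 45.2%, and stood at 144% and 111% in embryo 2 and 4. No library was thus lowest for all 4 genes, and none was highest for all.

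In CPM the highest embryo library exceeded the lowest 1.42 times for MCM3, 3.20 times for FEN1a, 3.31 times for MCM7 and 4.62 times for MCM6. The coefficient of variation was 17.4% for MCM3, 50.4% for FEN1a, 52.3% for MCM7 and 75.9% for MCM6, against a median of 32.1% over the 11559 genes held by every embryo library. That of MCM6 exceeded 95.7% of those genes, that of MCM7 79.5%, that of FEN1a 77.2% and that of MCM3 20.9%. MCM3 was thus the steadiest of the 4 over the embryo libraries and MCM6 the most variable.

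**Figure D4:**
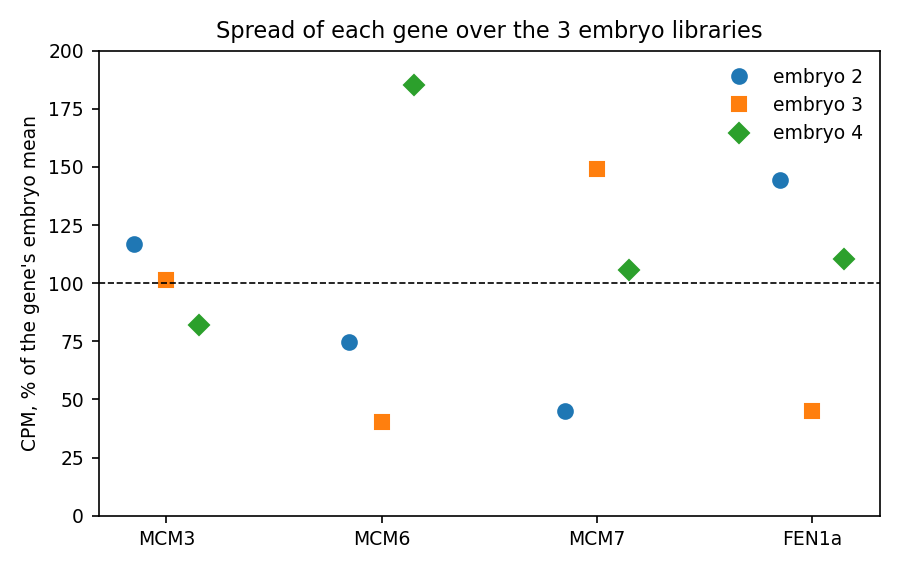
Level of the 4 genes in the 3 embryo libraries as a percentage of each gene's own mean embryo CPM (vertical axis), each point 1 library; the dashed line is the mean. MCM3 runs from 82.0% to 117%, MCM6 from 40.1% to 185%, MCM7 from 45.1% to 149% and FEN1a from 45.2% to 144%.

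Of the replication genes listed by symbol, 8 were in the table, the 4 described here with MCM5, MCM8, MCM9 and FEN1b. Against the mean of the rest 4 of the 8 were called higher in embryo and none lower, beside 16.6% of all genes. The median log2 fold change was 6.53 beside 2.30 for all genes. These values include the 4 genes described here, of which MCM3, MCM6 and MCM7 were called. Outside them 1 of 4 was called, with a median of 5.08. That 1 was MCM9, an MCM family member outside the ring, at 13.2, 12.2 and 10.6 CPM in embryo 2, 3 and 4 and without a count elsewhere (edgeR adjusted p = 0.0145). By the floor of 3 counts it was at least 87.8-fold higher than in pericarp, 116-fold than in aleurone and 98.3-fold than in endosperm. Of the 11559 genes held by every embryo library, 35.5% had no count in any pericarp library. The same share was 9.31% in aleurone and 19.9% in endosperm. MCM5, a further ring subunit, resembled MCM7, with 55.6, 103 and 87.4 CPM in embryo, 62.6 in pericarp 3 alone among pericarp libraries, and 0 in aleurone. In both genes embryo 2 was lowest and embryo 3 highest. MCM5 also had 6.39 and 9.44 CPM in endosperm 2 and 4, and a log2 fold change of 6.26 ± 2.01 that did not pass (adjusted p = 0.0533, edgeR). MCM8, another member outside the ring, had 3.89 ± 1.89 (SE, edgeR adjusted p = 0.155). MCM5, MCM8 and FEN1b were named as family members, beyond the rule for named genes.

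FEN1b, the second flap endonuclease gene, was counted in all 4 tissues like FEN1a, but in part in other libraries. It stood at 65.2 ± 34.4 CPM in embryo, 50.7 ± 26.9 in endosperm, 35.0 ± 31.9 in pericarp and 19.7 ± 21.1 in aleurone (SD, n = 3), with a log2 fold change of 1.00 ± 1.47 against the rest (SE, edgeR adjusted p = 0.71). In endosperm 2, 3 and 4 it had 676, 202 and 352 counts, where FEN1a had 145, 0 and 154. Pericarp 1 and 4 held 522 and 253 counts of FEN1b and none of FEN1a, and pericarp 3 held 515 of FEN1a and 1 of FEN1b. Aleurone 2 held 447 of FEN1a and none of FEN1b. Reads shared between such copies could be split by the counting, and the sources used here do not say how such reads were handled.

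Among 9 cell cycle genes 3 were called higher in embryo against the rest and none lower, beside 16.6% of all genes, and their median log2 fold change of 1.80 was below the 2.30 of all genes. CYCB2-1, a mitotic B-type cyclin, stood at 101 ± 23.6 CPM in embryo (SD, n = 3), with 0 in all other libraries (edgeR adjusted p = 0.0141). NEK2, of the NIMA-related kinases, had 73.7 ± 24.3 CPM in embryo, 22.5 in pericarp 3 and 0 elsewhere (adjusted p = 0.0238, edgeR). CDKG-1, a cyclin-dependent kinase gene, was called (adjusted p = 0.0338, edgeR) although its mean was 77.9 ± 58.6 CPM in aleurone and 48.0 ± 28.5 in embryo, with 0 in pericarp. RBR1, the retinoblastoma-related repressor of S-phase genes, reached 93.9 ± 11.2 CPM in embryo with no count in endosperm, and it did not pass (edgeR adjusted p = 0.0617). CDKG-2 had 80.9 ± 8.42 in embryo and 148 ± 51.9 in endosperm (log2 fold change against the rest 0.01 ± 1.19, SE). Of 10 histone H2B genes, whose products pack newly made DNA, H2B.2 and H2B.9 were called higher (edgeR adjusted p = 0.0416 and 0.0304) and none lower, a share near the 16.6% of all genes, with a median of 2.70 beside 2.30. H2B.6, with the highest mean CPM of them, stood at 205 ± 23.6 CPM in embryo against 142 ± 127 in pericarp (log2 fold change against the rest 2.63 ± 1.73, SE, adjusted p = 0.296, edgeR). The H2B genes are close copies, so their shares of reads are uncertain. The 3 markers of dividing cells in the table, of 5 listed (CYCB2-1, H2B.2 and H2B.9), summed to 309 to 482 CPM in embryo, 0 to 218 in pericarp, 0 to 45.9 in aleurone and 0 to 8.27 in endosperm. CYCB2-1 was at 0 throughout the last 3 tissues, H2B.2 also in aleurone and H2B.9 also in endosperm. All 3 markers are among the genes called higher above, and they were listed with earlier results known. Their sum is therefore no separate sign of where cells divide. The 8 H2B genes not called had log2 fold changes against the rest from -0.57 for H2B.4 to 2.97 for H2B.7. How much the number of dividing cells accounts for the levels of the 4 genes was not tested.

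**Figure D5:**
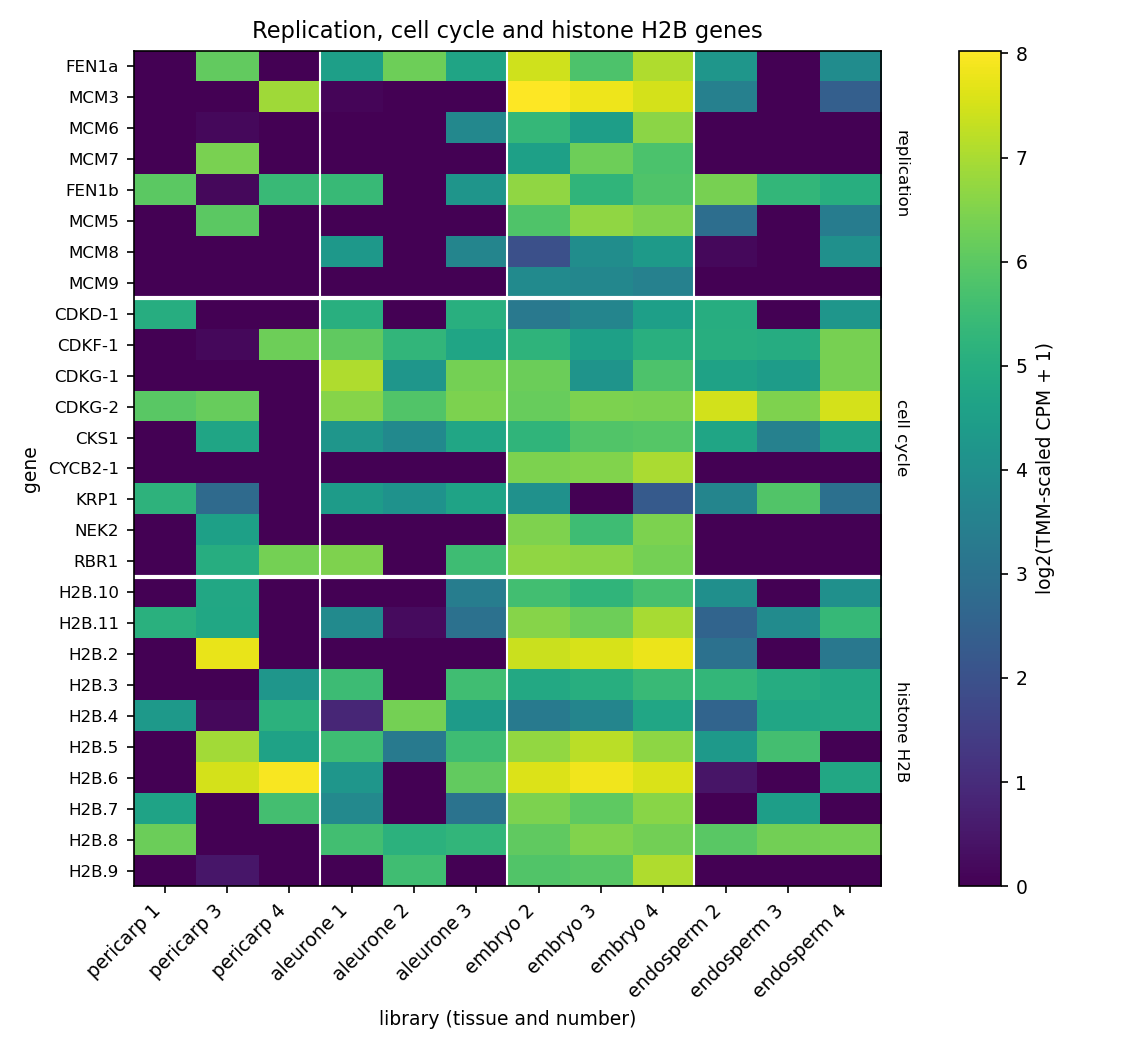
Level as log2(TMM-scaled CPM + 1), by color, of the 8 replication, 9 cell cycle and 10 histone H2B genes (rows, parted by white lines) in each of the 12 libraries (columns). Embryo columns hold all 8 replication genes, while the other columns hold 1 to 5 of them at 10 counts or more. Of all tested genes, embryo libraries held 82.0% to 91.2% at that count and the other libraries 23.6% to 77.6%.

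The named genes most like each of the 4 over the 12 libraries were found by Pearson correlation of log2(CPM + 1) among 282 other tested genes with a symbol, as a description. For MCM3 they were HOX33 (r = 0.93), ITPK2 (0.84) and MCM9 (0.81), and for MCM6 STLP2 (0.94), SPL3 (0.92) and IAA13 (0.92). For MCM7 they were OSH15 (r = 1.00, a KNOX homeobox gene of the embryo markers), LTP110-A_2 (0.99) and BASS4 (0.96). OSH15 shared with MCM7 its 8 libraries at 0 and its single pericarp library, where it had 54.8 CPM. For FEN1a they were PP2A1 (r = 0.89), ARF23 (0.88) and CKS1 (0.83), the last a cyclin-dependent kinase subunit. Among the 4 genes themselves r ran from 0.30, between MCM3 and FEN1a, to 0.66, between MCM3 and MCM6. These values rest on shared libraries at 0, from 2 of 12 for FEN1a and CKS1 to 8 of 12 for MCM7 and OSH15, counting up to 1 read as 0.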

How the data were processed

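The tissues' RNA was extracted with PicoPure, and NEBNext Ultra libraries from 10 ng of it were sequenced on a HiSeq2500, per the labels' protocols and the design text. The authors deposited total read counts per gene, which were whole numbers and not normalized, per the file headers. Aligner and genome build: not named in the sources used here. Another 36 columns of normalized per-library values were not used: headers tie columns to a tissue but not to 1 sample, and only the counts were kept. Levels are therefore not per gene length and are not compared between genes. Count columns were matched to tissues by header letters, Pc as letters of pericarp and Se by elimination, and the header numbers used here differ from those in the sample titles.

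edgeR 4.0.16 was run in R 4.3.3 on the counts. filterByExpr (minimum count 10) kept 16347 genes, TMM factors scaled the libraries, and 1 quasi-likelihood fit of all 12 libraries had tissue as its only term. The biological coefficient of variation was 1.87. For SE, the size of the log2 fold change was divided by the square root of its F value. Floors are 3 counts over a tissue's 3 libraries. Floors and intervals cover counting error only, since PCR copies are not separate molecules. The fit was also run on simulated counts with a smaller spread than these data and no added zeros. That run cannot show how the fit does on these data. Alternatives used DESeq2 1.42.0, limma 3.58.1 and other settings. Named beside the 4 genes are the list genes called, the 2 of each list with the highest mean CPM, and the 3 genes most like each in level. The genes and lists were chosen with earlier results of these data known.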

Additional observations from a re-analysis of the deposited data

How the results depend on the processing

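Of the log2 fold changes against the mean of the rest, these passed or lost the threshold under other settings, all in the same direction. MCM6 had 9.92 with the replicate block (edgeR adjusted p = 0.159) and 8.14 without pericarp (0.0688). MCM7 had 8.42 with lane as a covariate and 8.80 with the block (0.053 and 0.0991). FEN1a had 4.87 with limma voom (0.0128), which called 37.3% of all genes higher in embryo, with a median log2 fold change of 3.08. With single libraries left out MCM3 ran from 6.67 to 10.95, MCM6 from 7.76 to 11.59, MCM7 from 7.97 to 12.35 and FEN1a from 2.20 to 6.40. Signs turned 7 times, in pairs without a call in the main edgeR fit, although DESeq2 called MCM3 in aleurone against pericarp. In aleurone against pericarp they turned for MCM3 without pericarp 4 (1.92), MCM6 without aleurone 3 (-2.30) and FEN1a by library totals (-0.050). In pericarp against endosperm they turned for MCM3 with limma voom (-0.74) and without pericarp 4 (-8.72). There they also turned for FEN1a with limma voom (-2.02) and without pericarp 3 (-9.79). With single libraries left out, aleurone against pericarp ran from -11.68 to 1.92 for MCM3 and -2.30 to 8.57 for MCM6, and pericarp against endosperm from -8.72 to 4.09 for MCM3 and -9.79 to 1.78 for FEN1a. The cause was not tested. The block used the header numbers, for which same-numbered libraries did not deviate together (r from -0.04 to 0.03 over 13 pairs), so these are not pairs by the data.

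Counts of all genes called, in the order embryo against the rest, embryo against pericarp, aleurone and endosperm, aleurone against pericarp and endosperm, pericarp against endosperm, and any tissue, were 2903, 456, 73, 112, 266, 7, 402 and 291. DESeq2 gave 4633, 5259, 1357, 3095, 4436, 2359, 4932 and 2376, and limma voom 6688, 7222, 2251, 4667, 1681, 719, 1688 and 7183. The 6 libraries of a pair alone gave 5638, 388, 4266, 0, 82 and 0. The replicate block gave 392, 318, 159, 370, 66, 128, 279 and 580, and lane as a covariate 1863, 186, 65, 87, 0, 4, 182 and 138. Library totals gave 4093, 286, 64, 132, 0, 20, 128 and 142, no filter on low counts 2386, 348, 97, 141, 107, 31, 303 and 366, and DESeq2 size factors 12 between aleurone and endosperm. Single libraries left out gave 78 to 2873, 108 to 925, 33 to 108, 49 to 253, 0 to 860, 0 to 66, 113 to 1015 and 60 to 898.

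By library totals, mean CPM went from 222 to 278 for MCM3 in embryo, 39.0 to 81.5 in pericarp and 4.89 to 2.08 in endosperm, from 27.8 to 48.8 for MCM7 and 22.4 to 39.4 for FEN1a in pericarp, and from 10.4 to 4.52 for FEN1a in endosperm. Separations and ratios by scaling were added after the data were seen. Spearman's rho or a pseudocount of 0.1 kept HOX33, STLP2 and OSH15 among the 3 most like MCM3, MCM6 and MCM7, while none of the 3 named for FEN1a was among its 3 most like by rho. With TMM scaling, libraries at 0 or 1 count would have held at least 111 counts of any of the 4 genes at its lowest embryo level. By library totals this bound was not computed.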

Other observations

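Pericarp 3 held the most listed replication and cell cycle genes of the pericarp libraries, although it held fewer of all tested genes at 10 counts or more (26.8%) than pericarp 1 (32.3%). It held 3 of 8 replication genes (MCM5, MCM7 and FEN1a) and 5 of 10 histone H2B genes. Of the 9 cell cycle genes it held 5 (KRP1, CKS1, CDKG-2, NEK2 and the repressor RBR1). Pericarp 1 held 1, 3 and 4 of the replication, cell cycle and histone lists, and pericarp 4, with 23.6% of all tested genes, held 2, 2 and 5. MCM3, of the same helicase ring as MCM5 and MCM7, was counted in pericarp 4 and not in pericarp 3. CYCB2-1 was at 0 in all 3. Among the pericarp libraries, pericarp 3 alone held the embryo marker OSH15 (419 counts).

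Of the 4 ring subunits in the table, the aleurone libraries held 1 at 10 counts or more, MCM6 in aleurone 3. They held 77.6%, 45.1% and 66.9% of all tested genes in aleurone 1, 2 and 3, and 7, 5 and 7 of the 9 cell cycle genes. MCM5 and MCM7 had no count in any aleurone library and MCM3 a single one, while FEN1a was in all 3. Of the 11559 genes held by every embryo library, 9.31% had no count in any aleurone library. In endosperm MCM6 and MCM7 had no count, and MCM3 and MCM5 reached at most 10.3 and 9.44 CPM.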
